A study of Mus musculus with 9 samples.

Results

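Between 3 mouse osteosarcoma cell lines, named 493H, 494H and 716H, 150 of 19938 measured genes differed by at least 2 log2 units (a 4-fold difference) while staying within 1 log2 unit in each group of control cultures. These 150 genes were chosen by their own values: the range over the 3 line arrays had to reach 2 log2, the range within each control group had to stay below 1 log2, and genes on the X and Y chromosomes were left out. Each line was measured on 1 array, so a difference between lines has no replicate error here and none is tested. Of the 19187 autosomal or unplaced genes, 215 (1.12%) reached the line limit and 150 (0.782%) met both limits. A further 8 genes that reached the line limit were X- or Y-linked and 65 varied too much within a control group.

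The lines came from tumours of adult C57BL/6 mice carrying Osx-Cre with floxed alleles of p53 and Rb (genotype Osx-Cre p53fl/fl Rbfl/fl), and the labels call all 3 fibroblastic. They were grown below confluence and used before passage 8. The Osx promoter (Osx is also called Sp7) drives Cre in cells committed to the osteoblast lineage, so the 3 lines share the loss of both tumour suppressors in that lineage, and the labels give 1 sample for each line. The control cells were Kusa4b10, a mouse bone marrow stromal line, as 3 undifferentiated cultures (pre-osteoblasts) and 3 cultures differentiated with ascorbate over 21 days (osteoblasts). All 6 control cultures are of 1 line, and the labels call those of a state independent samples without saying whether they were grown separately, so their spread may be partly technical. In bulk RNA, fewer cells of a type and less RNA per cell cannot be told apart.

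The sex given for each line was checked against sex-linked transcripts. Line 493H, labelled female, had Xist, the RNA that coats the inactive X chromosome, at a log2 level of 12.705, and the Y-linked Eif2s3y at 3.91. Line 494H, labelled male, had Xist at 5.27 and Eif2s3y at 9.88. The line labelled 716H and female had Xist at 5.56 and Eif2s3y at 10.06, with the Y-linked Uty at 9.80 and Kdm5d at 8.76, so its transcripts go against its sex label, and its name is used below as the labels give it. The Kusa4b10 cultures had neither signal, with Xist between 5.36 and 5.70 and Eif2s3y between 3.86 and 4.08.

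Array medians over all probe sets lay between 7.43 and 7.56, and no pair of arrays within a group shared more than 4.33% of its probe set values. The correlation of levels across genes was 0.984 between 493H and 494H, 0.987 between 493H and 716H and 0.982 between 494H and 716H, and 0.994 to 0.998 between cultures of a Kusa4b10 state. Genes are not independent replicates, so these values describe the arrays only.

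The spread between lines was wider than the spread between cultures of a control state at every limit counted. At 2 log2, 215 autosomal genes separated the lines, against 7 (0.0365%) among the osteoblast cultures and 8 (0.0417%) among the pre-osteoblast cultures. At 1 log2 the counts were 947, 247 and 176. At 3 log2 they were 59, 0 and 1. Lines are different tumours and cultures share a line, so the gap between these counts holds both line identity and culture spread, and the design has no repeat array of a tumour line to separate them.

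**Figure D1:**
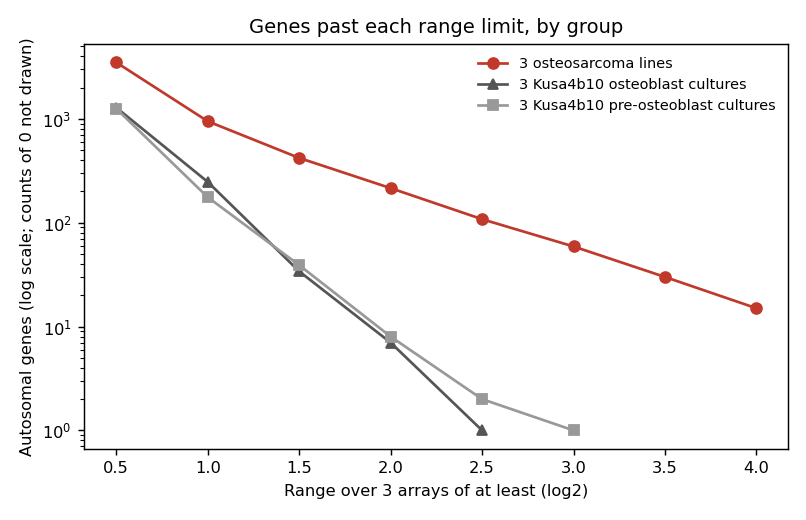
Number of autosomal genes (logarithmic axis) whose range over 3 arrays reached each limit in log2 units, for the 3 osteosarcoma lines (circles), the 3 Kusa4b10 osteoblast cultures (triangles) and the 3 pre-osteoblast cultures (squares). At 2 log2 the lines have 215 genes, the osteoblast cultures 7 and the pre-osteoblast cultures 8.

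Line 494H was the low line. It had the lowest level of the 3 in 93 of the 150 genes (62.0%), against 29.4% of all autosomal genes. Among the 947 autosomal genes with a line range of at least 1 log2, 494H was lowest in 53.0%. Much of the excess was thus shared by variable genes in general. Line 716H was highest in 66 of the 150 (44.0%) and 493H in 58 (38.7%), against 33.9% and 40.9% of those 947 genes. In 75 genes (50%, against 49.2% of all autosomal genes) the lines formed a graded series, with the middle line well away from both others, a share at the background. In the remaining genes a single line stood apart, its gap being at least 0.75 of the range: 494H was alone low in 31, 716H alone high in 14, 493H alone high in 12, 494H alone high in 11, 493H alone low in 4 and 716H alone low in 3. Among all autosomal genes 8.44% had 494H alone low, against 20.7% of the 150, and 4.63% had 493H alone high, against 8.00%. The share with 716H alone high was 9.92% against 9.33%, near the background, and the other single-line patterns were less frequent among the 150 than among all genes. By pairs, 71 of the 150 were at least 2 log2 higher in 716H than in 494H and 16 lower. For 493H against 494H the counts were 58 and 20, and for 493H against 716H they were 27 and 24.

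The lines also differed in where they sat relative to the 6 Kusa4b10 cultures. Line 716H was above all 6 cultures in 84 of the 150 genes and below all 6 in 27. The counts were 80 and 20 for 493H, and 56 and 48 for 494H. Over all 19938 genes, 716H was above all 6 cultures in 21.2% and below in 21.6%, 493H in 16.8% and 28.4%, and 494H in 22.3% and 23.5%. All 3 lines exceeded every culture in 38 of the genes and lay under every culture in 7.

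**Figure D2:**
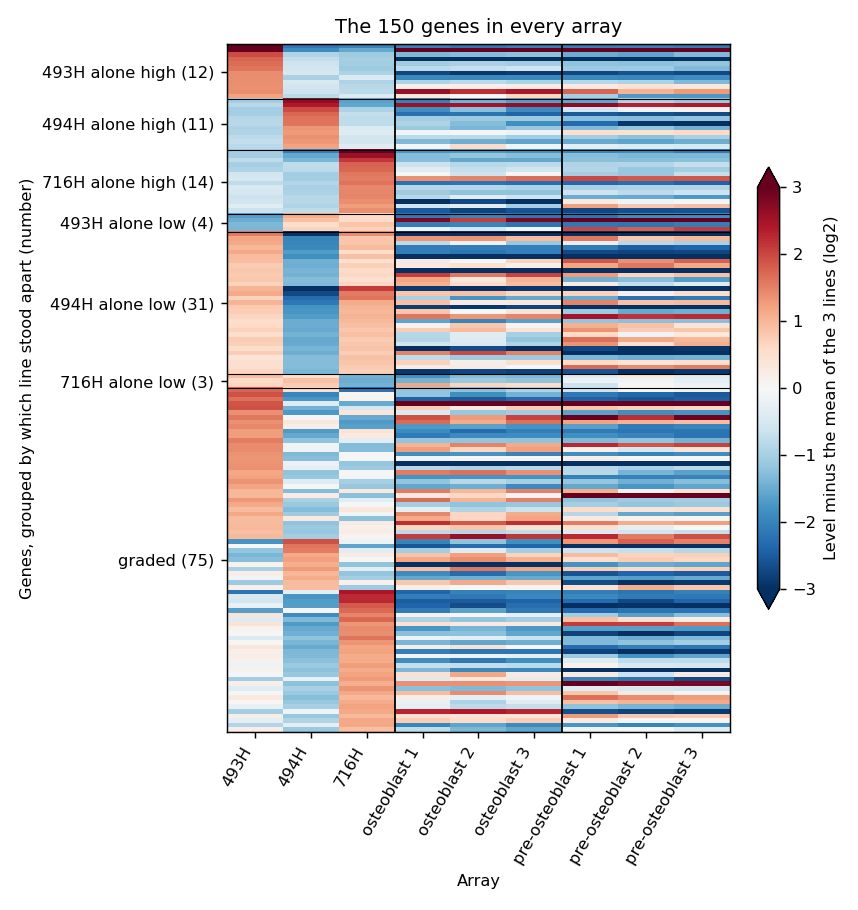
Level of the 150 genes (rows) in the 9 arrays (columns), as the difference in log2 units from the mean of the 3 lines; colours end at 3 log2 in either direction. Rows are grouped by which line stood apart, with the number of genes, and the block in which 494H is alone low (31 genes) is the largest of the single-line blocks.

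Tumour cells of the osteoblast lineage lay down and remodel an extracellular matrix. Fibrillar collagen is its scaffold, matricellular proteins and small proteoglycans tune how cells attach to it, and secreted proteases cut it. Secreted growth factors, binding proteins and cytokines carry signals through it. In the interferon response, secreted interferons switch on a large antiviral gene set through JAK and STAT proteins. In retinoid signalling, retinol is oxidised to retinoic acid, the ligand of nuclear receptors that pattern the skeleton.

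Of the programmes with a gene list, the matrix gave the most of the 150. The collagen, matricellular and matrix protease lists together held 127 measured genes, of which 12 (9.45%) were among the 150, against 0.782% of all autosomal genes. 494H was lowest in all 12 of these, 716H highest in 9 and 493H in 3. Counting every gene of these lists with a line range of at least 1 log2, 494H was lowest in 41 of 48, 716H highest in 29 and 493H in 16. Among all 947 autosomal genes with such a range, 494H was lowest in 53.0% and 493H in 15.6%, while 493H was highest in 40.9% and 716H in 33.9%, so part of this split was shared by variable genes in general.

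Of the collagens, which form or decorate the fibrils, only Col14a1 was among the 150. Col14a1 encodes collagen XIV, which sits on fibril surfaces in tendon and dermis. Its log2 level was 11.32 in 493H, 7.17 in 494H and 12.39 in 716H. The osteoblast cultures had 7.41, 7.25 and 7.40 and the pre-osteoblast cultures 7.06, 7.37 and 7.34. Thus 493H and 716H stood far above every culture and 494H lay among them, a range over the lines of 5.22 log2 or 37.3-fold. The other 24 measured collagens ranged by less than 1 log2, the major bone collagen genes among them: Col1a1 was at 13.42, 12.81 and 13.53 in 493H, 494H and 716H, and Col1a2 at 13.24, 13.14 and 13.25.

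Matricellular proteins and proteoglycans gave 10 of the 150 genes out of 61 measured, and 31 of the 61 ranged by at least 1 log2, against 4.94% of all autosomal genes. In these 31 genes 494H was lowest in 27 and 716H highest in 18. Thbs4, a thrombospondin of tendon and muscle, was at 8.06 in 493H, 7.04 in 494H and 12.23 in 716H. The Kusa4b10 cultures had 7.38, 7.41 and 7.32 as osteoblasts and 7.16, 7.23 and 7.02 as pre-osteoblasts, so that 716H alone was far above them. Tnn, the tenascin-W gene of periosteum and developing bone, had the same order, with 8.30, 7.19 and 11.13 in 493H, 494H and 716H and 6.17 to 6.55 in the cultures. Comp, a thrombospondin of cartilage and tendon, was at 7.53, 7.01 and 9.44 against 7.03 to 7.15 in the cultures.

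Several matrix genes were high in both 493H and 716H; of the genes below, Mfap5, Mfap2, Ccn5 and Tgfbi were picked after their values were seen. Mfap5, a microfibril protein, was at 12.60 in 493H, 10.40 in 494H and 12.37 in 716H, against 7.14 to 7.96 in the cultures, so all 3 lines exceeded every culture. Mfap2, its relative, was at 10.81, 8.86 and 11.18, against 9.30 to 10.88. Ltbp2, which binds microfibrils, was at 10.47, 8.99 and 11.82. The growth factor-binding CCN proteins split: Ccn5 was at 12.53, 10.75 and 12.89, while Ccn3 was highest in 493H, at 12.83, 9.50 and 10.40, with the cultures between 11.18 and 11.75. Tgfbi, an adhesive protein induced by TGF-beta, was highest in 716H, at 11.59, 11.28 and 13.53 in 493H, 494H and 716H. The most abundant genes of the list hardly differed: Fn1 (fibronectin) ranged by 0.07 log2 and Sparc by 0.30.

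Of the protease list, 1 gene was among the 150, Pappa. It encodes a metalloprotease that cleaves Igfbp4, and was at 8.95 in 493H, 7.90 in 494H and 10.16 in 716H. Its substrate, Igfbp4, which binds insulin-like growth factors and is counted with the growth factors, was among the widest of the 150: 12.84 in 493H, 8.98 in 494H and 13.26 in 716H. The cultures had Igfbp4 between 11.85 and 12.57, so 494H alone was low, by 19.4-fold against 716H. The protease gene and the substrate gene had the same order of lines. The lists do not hold every gene of a class: Adamts16 (8.38, 6.98 and 9.67 in 493H, 494H and 716H) and Adamts3 (9.02, 8.41 and 10.69), secreted metalloproteases on no list, were also among the 150 and also lowest in 494H and highest in 716H. Adamts16, and Hoxc12, Osr2, Dact1 and Daam2 below, were picked after their values were seen.

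Mmp13, the main collagenase of bone and cartilage, had 1 of the widest ranges of all but was not among the 150. It was at 9.33 in 493H, 7.72 in 494H and 12.91 in 716H, a range of 5.19 log2. In the Kusa4b10 cultures it was at 14.003, 13.12 and 13.93 as osteoblasts and 12.61, 10.95 and 11.69 as pre-osteoblasts, and the pre-osteoblast range of 1.66 log2 exceeds the limit. 493H and 494H lay below every culture and 716H among them. Its locus holds other matrix metalloproteinase genes in a cluster. Of the 17 measured genes from this neighbourhood, only Cep126 besides Mmp13 ranged by 1 log2 or more (7.25, 8.47 and 7.27), while Mmp3 ranged by 0.75, Mmp8 by 0.16, Mmp10 by 0.16 and Mmp12 by 0.10.

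The promoter of Mmp13 is shown because its AP-1 motif, TGANTCA, is well known. Sequences here come from RefSeq (GRCm38.p6) and run 5′ to 3′ over the 200 bases before the transcription start, with the motif in capitals; this one is at chr9:7272314-7272513, plus strand.
Mmp13: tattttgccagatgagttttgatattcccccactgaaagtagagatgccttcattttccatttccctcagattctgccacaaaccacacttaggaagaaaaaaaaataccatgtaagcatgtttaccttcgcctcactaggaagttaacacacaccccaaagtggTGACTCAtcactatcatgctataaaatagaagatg
The motif began 35 bases before the start. It was found in 11 of 126 promoters of the 100 genes of the 150 that have a promoter in the table (8.73%), against 7.81% of all 32851 promoters, each taken from 250 bases before to 50 bases after the start on both strands. TATAAA was found in 15.9% of them against 13.6%. Both shares lie near the background.

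**Figure D3:**
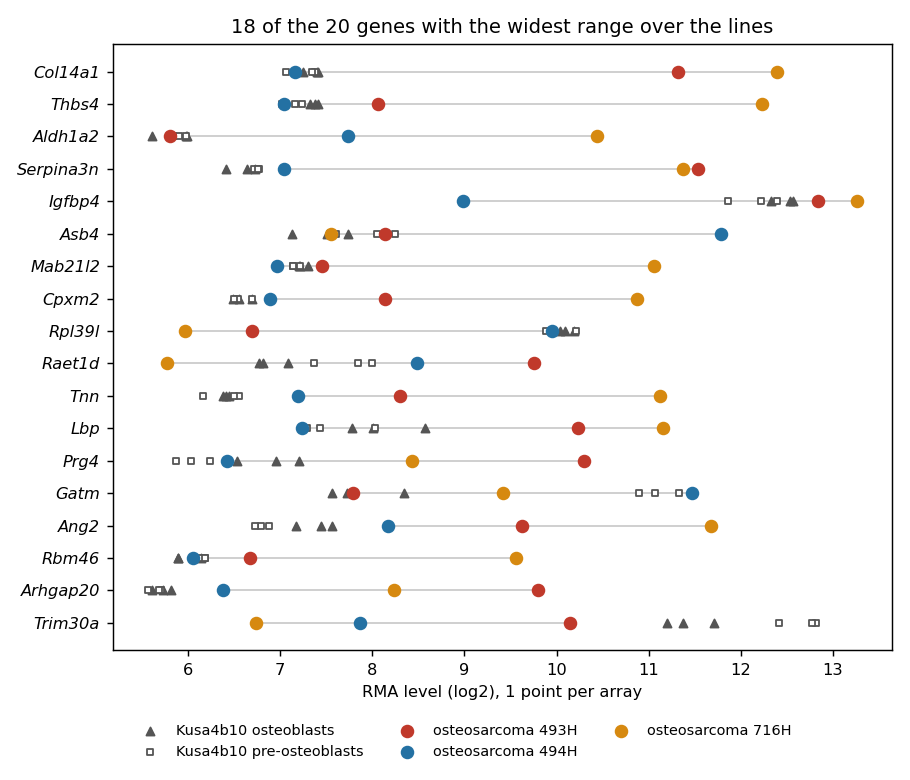
Log2 level in each of the 9 arrays for 18 of the 20 widest genes (2 with clone-like names are not drawn), with 1 circle for each osteosarcoma line, triangles for Kusa4b10 osteoblast cultures and squares for pre-osteoblast cultures. Col14a1, Serpina3n, Igfbp4 and Lbp have 494H low with both other lines high, Thbs4, Mab21l2 and Rbm46 have 716H alone high, and Asb4 has 494H alone high.

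Secreted proteins outside the matrix lists were also lowest in 494H more often than in the other lines. The cytokine, growth factor and complement lists held 125 measured genes and 5 of the 150 (4%). Of their 37 genes with a line range of at least 1 log2, 494H was lowest in 27, and 716H was highest in 17 and 493H in 16. Among all autosomal genes with such a range, 494H was lowest in 53.0%, 716H highest in 33.9% and 493H highest in 40.9%. The share with 493H highest was thus near that of variable genes in general. Gas6, the ligand of the TAM receptor tyrosine kinases, was at 11.42 in 493H, 8.23 in 494H and 11.08 in 716H, against 11.05 to 11.82 in the cultures, so 494H alone lay outside them. The most abundant genes of the growth factor list differed by less than 1 log2: Igfbp7 ranged by 0.62 and Fstl1 by 0.77.

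The chemokines went both ways. Cxcl14, a chemokine of skin and stroma, was at 8.14 in 493H, 8.01 in 494H and 10.53 in 716H, against 6.47 to 6.69 in the 6 cultures. Cxcl9, an interferon-induced chemokine that attracts T cells, was at 9.48, 7.83 and 7.01, against 7.11 to 7.28 in the cultures. 716H was thus the highest line for the first gene and the lowest for the second. C1qtnf3, a secreted C1q-like protein, was highest in 493H, at 9.04, 7.20 and 6.74.

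Acute-phase and secreted genes on none of these lists were among the widest. Serpina3n, a secreted serine protease inhibitor, was at 11.53 in 493H, 7.04 in 494H and 11.37 in 716H. Its levels in the cultures were 6.73, 6.64 and 6.41 as osteoblasts and 6.77, 6.71 and 6.76 as pre-osteoblasts, so 493H and 716H were raised and 494H was near the cultures. Lbp, which binds bacterial lipopolysaccharide, was at 10.23, 7.24 and 11.16, against 7.29 to 8.57. Ang2, a secreted ribonuclease of the angiogenin family, was at 9.63, 8.17 and 11.67, against 6.73 to 7.56, and Cpxm2, a secreted carboxypeptidase-like protein, was at 8.14, 6.89 and 10.87, against 6.49 to 6.69.

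Interferon genes separated the lines in another order, with 493H highest and 716H lowest. Of 51 measured genes of the interferon response list, 35 ranged by at least 1 log2 over the lines; 493H was highest in 34 of these and 716H lowest in 32. The order 493H above 494H above 716H held in 42 of the 51 genes, against 1859 of all 19938 genes. The list's median line range was 1.23 log2, against 0.22 over all genes. The antigen presentation list, which interferons also raise in many cells, ranged less: 2 of its 21 genes reached 1 log2, and B2m was at 13.56, 13.36 and 13.47.

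The 2 genes of this list among the 150 were Trim30a and Rtp4. Trim30a, an interferon-induced TRIM protein, was at 10.14 in 493H, 7.87 in 494H and 6.74 in 716H. The osteoblast cultures had 11.37, 11.20 and 11.70 and the pre-osteoblast cultures 12.81, 12.42 and 12.77, so every line lay below every culture. Rtp4, an interferon-induced receptor transporter, was at 10.65, 9.02 and 7.57, against 10.998, 10.35 and 11.11 in osteoblasts and 12.04, 11.31 and 12.01 in pre-osteoblasts. In 494H and 716H it lay below all 6 cultures, and in 493H among the osteoblasts. Over the whole list, 716H was below all 6 cultures in 42 of 51 genes and 494H in 36, and 493H was below them in 5 and above them in 2.

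Control cultures varied in the same genes, and 1 culture decided how many met the limits. The list's median range was 1.08 log2 among the pre-osteoblast cultures, close to its range over the lines, and 0.47 among the osteoblast cultures. Pre-osteoblast culture 2 was the lowest of its group in 50 of the 51 genes and osteoblast culture 2 the lowest of its group in 43. Of 17 list genes past 2 log2 over the lines, 15 failed the limit within a Kusa4b10 group. Without pre-osteoblast culture 2, 16 of the 17 met it, against 2 with all cultures. A tumour line has 1 array each, so the part of culture-to-culture spread in the order of the lines was not tested.

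Ifit3, Ifit1 and Ifi205, named after their values were seen, are among those 15. Ifit3, an interferon-induced antiviral protein, was at 12.02 in 493H, 9.93 in 494H and 7.78 in 716H, with 13.01, 11.58 and 13.11 in the pre-osteoblast cultures. Ifit1, which binds foreign RNA caps, was at 11.63, 9.94 and 8.34, with 12.75, 11.36 and 12.77 in those cultures. Ifi205, of the interferon-inducible p200 family, was at 9.57, 6.67 and 6.37, with 8.73, 7.20 and 9.10. Culture 2 was the lowest pre-osteoblast culture for all 3 genes, and the ranges over the lines were 4.25, 3.29 and 3.20 log2.

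**Figure D4:**
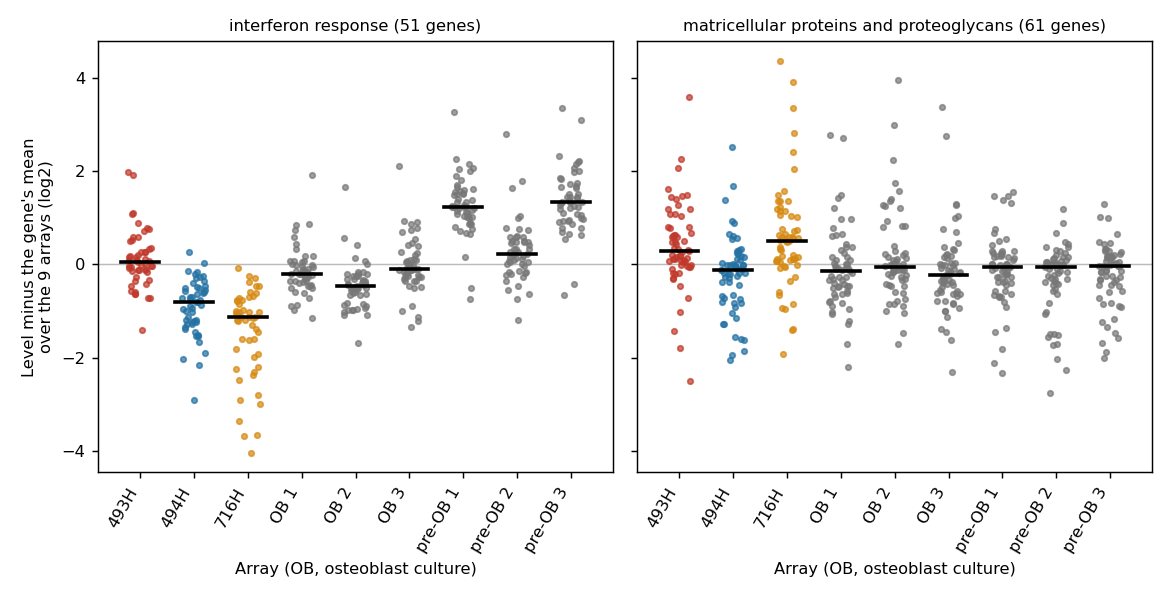
Each point is 1 gene of the interferon response list (left, 51 genes) or the matricellular and proteoglycan list (right, 61 genes), as its level minus its mean over the 9 arrays in log2 units, with the array median as a black bar; points are spread sideways for sight only. The interferon medians are 0.05 in 493H, -0.82 in 494H and -1.13 in 716H, and 0.22 in pre-osteoblast culture 2 against 1.23 and 1.33 in the other two; the matricellular medians are 0.29, -0.12 and 0.51 in the lines.

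The genes whose promoters are shown had the same order of lines, 493H above 494H above 716H. Other genes of the list with this order are not shown. Only promoters with a match to the motif named next are shown, so a match in each of them is not a finding. Interferon-stimulated genes commonly carry a GAAANNGAA-type element, the core of the site bound by interferon-regulated factors. The windows below are the 200 bases before the start from RefSeq (GRCm38.p6), with every match on either strand in capitals.
Trim30a, chr7:104465194-104465393, minus strand: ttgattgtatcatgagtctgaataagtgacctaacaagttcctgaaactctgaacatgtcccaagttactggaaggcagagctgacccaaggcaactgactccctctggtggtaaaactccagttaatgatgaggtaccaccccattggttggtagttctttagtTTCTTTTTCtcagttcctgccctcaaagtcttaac
Cxcl9, chr5:92328080-92328279, minus strand: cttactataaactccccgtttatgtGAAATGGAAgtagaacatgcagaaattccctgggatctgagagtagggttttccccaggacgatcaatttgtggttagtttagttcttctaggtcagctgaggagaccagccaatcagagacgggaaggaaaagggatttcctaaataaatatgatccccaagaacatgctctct
Ifit3, chr19:34583329-34583528, plus strand: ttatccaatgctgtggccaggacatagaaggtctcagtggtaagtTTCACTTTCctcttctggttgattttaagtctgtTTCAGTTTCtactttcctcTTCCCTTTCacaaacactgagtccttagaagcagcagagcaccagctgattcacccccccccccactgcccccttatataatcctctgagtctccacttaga
Ifit1, chr19:34640689-34640888, plus strand: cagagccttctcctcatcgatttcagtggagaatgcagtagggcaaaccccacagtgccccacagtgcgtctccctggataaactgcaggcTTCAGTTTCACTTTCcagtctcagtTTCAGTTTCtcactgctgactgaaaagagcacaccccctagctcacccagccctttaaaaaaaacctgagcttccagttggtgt
Ifi205, chr1:174031756-174031955, minus strand: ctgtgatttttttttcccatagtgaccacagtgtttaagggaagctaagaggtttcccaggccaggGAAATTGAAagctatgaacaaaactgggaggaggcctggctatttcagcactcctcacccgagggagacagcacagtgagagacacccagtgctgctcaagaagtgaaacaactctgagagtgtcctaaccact
Ifit3 and Ifit1 each held 3 matches in this window, those of Ifit1 partly overlapping, and the other 3 genes held 1 each. The motif was present in 21 of 45 promoters of the interferon list (46.7%), covering 20 of the 36 list genes found in the table, against 8.56% of all promoters. Among the 35 interferon genes that ranged by at least 1 log2, 16 of the 23 with a promoter in the table held it. Of the 150 genes it was in 17 of 126 promoters (13.5%). The median number of CpG per 300 bases was 6 in the promoters of the interferon list, near the 7 of all promoters, and 12 in those of the 150.

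Retinoid genes gave 3 of the 150 out of 33 measured (9.09%, against 0.782% of all autosomal genes), with no common order of lines. Aldh1a2, which oxidises retinal to retinoic acid, was at 5.80 in 493H, 7.73 in 494H and 10.44 in 716H. The cultures had 5.61, 5.97 and 5.99 as osteoblasts and 5.91, 5.83 and 5.97 as pre-osteoblasts, so 494H and 716H were above every culture and 493H among them. Rbp4, the secreted carrier of retinol, was at 7.47, 6.67 and 9.49, against 6.40 to 7.72. Dhrs9, a dehydrogenase of the retinol pathway, was at 10.73, 8.35 and 10.30, against 9.83 to 11.67, so 494H alone was low.

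Crabp1 had another order of lines than these 3. Crabp1, the cytosolic carrier of retinoic acid, was the most abundant other gene of the list, at 11.17 in 493H, 12.53 in 494H and 12.13 in 716H. Tgm2, the 1 other list gene past 2 log2, varied too much within the control groups. It was at 8.08, 8.14 and 10.59 in 493H, 494H and 716H. Over the list, 9 of 33 genes ranged by at least 1 log2 (27.3%, against 4.94% of all autosomal genes). In these 9, 716H was highest in 4, 493H in 3 and 494H in 2. GGTCA repeated in the same direction with 5 bases between was in 0 of the 45 promoters of the retinoid list and in 0.0761% of all promoters. This spacing was counted between 5-base units, so the counts are not taken to cover the sites of retinoic acid receptors.

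The list of positional transcription factors gave 4 of the 150 out of 69 measured (5.80%, against 0.782% of all autosomal genes). Hoxc12, a posterior Hox gene on no list, had a wider range than these 4, at 9.81 in 493H, 7.72 in 494H and 10.73 in 716H, and Osr2, a zinc finger gene also on no list, was at 8.62, 7.65 and 10.01. Hoxa11, a homeobox gene of the forelimb and hindlimb middle segment, was at 6.97 in 493H, 6.48 in 494H and 9.03 in 716H, against 8.88 to 9.47 in the cultures. Meox2, a mesodermal homeobox gene, was at 10.53, 7.74 and 10.45, against 5.62 to 6.00, so all 3 lines were above every culture. Six2 and Dlx6 were highest in 494H: Six2 was at 7.39, 9.86 and 7.48, and Dlx6, a homeobox gene of the osteoblast lineage, at 7.55, 10.26 and 8.38. The most abundant other genes of the list, Tbx15 and Tbx18, ranged by 0.52 and 0.59 log2.

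Cell guidance and adhesion genes separated the lines in several directions. Epha3, an ephrin receptor, was at 9.30 in 493H, 10.91 in 494H and 7.73 in 716H, and its ligand family member Efna5 at 8.43, 10.69 and 9.09. Plxnd1, a semaphorin receptor, was at 10.23, 8.93 and 11.03, and its ligand Sema3e at 7.30, 9.37 and 9.37. The receptor and the ligand of the Plxnd1 pair thus had their lowest lines apart. Itga6, a laminin-binding integrin subunit, was low in 716H alone (8.70, 8.85 and 6.65), whereas Itga11, a collagen-binding subunit, was highest there (9.66, 10.49 and 11.99), as was the protocadherin Pcdh17 (7.29, 7.52 and 10.07). Cd24a, a surface glycoprotein, was lower in every line (10.24, 8.87 and 11.18) than in any culture (11.43 to 13.15).

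Wnt list genes that varied between the lines were mostly highest in 493H. Of the 54 measured genes of the Wnt list, 1 was among the 150, Fzd4, a Wnt and norrin receptor, at 9.41 in 493H, 7.18 in 494H and 8.16 in 716H. Of the 12 Wnt genes with a line range of at least 1 log2, 493H was highest in 11. Among all autosomal genes with such a range, 493H was highest in 40.9%. The lowest line of the 12 was 494H in 8, 716H in 3 and 493H in 1. Most genes of the list ranged by less than 1 log2. Over the whole list the median deviation from the mean of the lines was 0.00 in 493H, -0.06 in 494H and 0.05 in 716H. Dact1 and Daam2, regulators of Wnt signalling on no list, were also among the 150. Dact1 was at 10.30, 8.36 and 10.60 and Daam2 at 7.82, 10.33 and 9.43, so 493H was the highest line for neither. A further 4 passed 2 log2 but varied within a control group. Of these, chosen after their values were seen, the Wnt antagonist Sfrp1 was at 13.63, 10.68 and 13.51, and Rspo2, an amplifier of Wnt signals, at 11.26, 9.33 and 8.32.

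Single lines had their own genes outside the gene lists described above, the matrix protein gene Dpt among them. In 493H alone Iqgap2, a scaffold protein, was at 10.10, against 7.23 in 494H and 7.06 in 716H, and Adcyap1r1, the PACAP receptor, at 10.08 against 7.79 and 7.37. Dpt, the matrix protein dermatopontin, was at 10.92 against 8.43 and 8.17, and Gpr149, an orphan receptor, at 8.80 against 6.64 and 6.12. Elovl7, a fatty acid elongase, was low in 493H alone (6.71, 9.47 and 8.93), as was Auts2 (7.20, 9.08 and 9.39).

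In 494H alone Asb4, an ankyrin repeat protein with a SOCS box, was at 11.78 against 8.13 in 493H and 7.56 in 716H. Rpl39l, a tissue-restricted copy of a ribosomal protein gene, was at 9.95 against 6.70 and 5.97, while the cultures had 9.88 to 10.21, so 494H matched the cultures and the other lines were low. Rpl39l is a close copy of another gene, and its probes may share signal with it, so its values are uncertain. Lrrc15, a membrane protein of stromal cells, was at 11.46 against 8.46 and 8.55, and Slc6a15, an amino acid transporter, at 9.37 against 6.64 and 6.94.

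In 716H alone Mab21l2, a developmental regulator, was at 11.05 against 7.46 in 493H and 6.97 in 494H. Rbm46, an RNA-binding protein best known from germ cells, was at 9.55 against 6.67 and 6.05, and Dhdh, a dihydrodiol dehydrogenase, at 9.84 against 7.21 and 7.33. Klhdc8a (9.54, 9.83 and 7.46 in 493H, 494H and 716H) and Rgs20, a regulator of G protein signalling (8.89, 8.48 and 6.57), were low in 716H alone. Dpep1, a membrane dipeptidase, was low in 494H alone (11.09, 7.94 and 11.19).

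Genes with a graded series over the lines had no common order. Gatm, the first enzyme of creatine synthesis, was at 7.80 in 493H, 11.47 in 494H and 9.42 in 716H, against 7.56 to 11.32 in the cultures. Prg4, the joint lubricant lubricin, was at 10.29, 6.42 and 8.43, against 5.87 to 7.20. Raet1d, a stress-induced ligand of the NKG2D receptor of natural killer cells, was at 9.75, 8.48 and 5.78, against 6.77 to 7.99. Arhgap20 was at 9.80, 6.38 and 8.23, Abi3bp, a matrix-associated protein named after its values were seen, at 11.26, 8.98 and 12.32, and Lepr, the leptin receptor that marks bone marrow stroma, at 6.28, 7.89 and 9.62.

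A stretch of imprinted genes on chromosome 12, chosen for description after its values were seen, was often highest in 493H. The stretch from Dlk1 to Dio3 is expressed in part from the maternal and in part from the paternal chromosome, and its maternal RNA carries many small RNAs. Of 48 measured genes there, 493H was highest in 29 and 716H in 17, and 494H was lowest in 38. Over all autosomal genes, 493H was highest in 4596 of 19187 and 494H lowest in 29.4%. The median line range of the stretch was 0.32 log2, so many of these orders rest on small differences. All 9 genes with a line range of at least 1 log2 were highest in 493H, against 40.9% of all autosomal genes with such a range. Dlk1, a membrane protein that blocks adipocyte formation, was at 12.35 in 493H, 10.46 in 494H and 9.995 in 716H, against 8.05 to 8.31 in the cultures. The long noncoding RNA Meg3 was at 9.64, 7.74 and 8.91, its neighbour Rian at 8.20, 6.59 and 7.53, and Dio3, which inactivates thyroid hormone, at 9.85, 8.13 and 9.50.

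Of 40 miRNA genes measured in this stretch, 4 ranged by at least 1 log2 and 2 of these, Mir382 and Mir377, were among the 150. Mir382 was at 7.82 in 493H, 5.46 in 494H and 6.00 in 716H, and Mir377 at 7.57, 5.22 and 6.27, with the cultures between 4.32 and 4.59 for both. Mir323 (7.28, 5.52 and 6.22) and Mir300 (6.09, 4.62 and 5.43) had the same order. These arrays measure RNA that holds the hairpin, so precursor and mature miRNA cannot be told apart. The mature sequences (RefSeq, GRCm38.p6) are given with the seed, bases 2 to 8, in capitals, since the seed sets which targets a miRNA binds.
miR-382-5p: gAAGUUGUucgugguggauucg
miR-382-3p: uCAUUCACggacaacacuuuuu
miR-377-5p: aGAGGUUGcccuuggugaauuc
miR-377-3p: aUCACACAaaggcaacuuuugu
miR-323-3p: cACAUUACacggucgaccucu
miR-300-3p: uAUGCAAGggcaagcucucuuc
None of these 6 seeds is shared with another mature miRNA of the 76 from this stretch, so the 4 miRNA genes do not form a seed family.

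**Figure D5:**
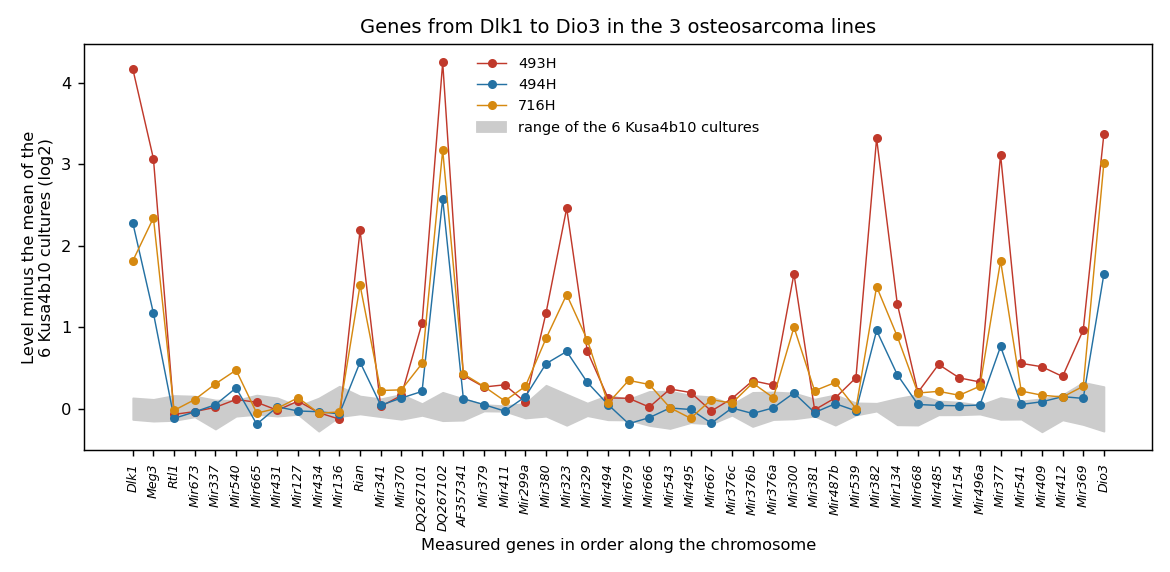
Level of the 48 measured genes from Dlk1 to Dio3, in order along chromosome 12, as the difference from the mean of the 6 Kusa4b10 cultures in log2 units, with 1 line per osteosarcoma line; the grey band is the range of the cultures. At Dlk1, Meg3, Rian, Mir382, Mir377 and Dio3 all 3 lines lie above the band with 493H highest and 36 of the 40 miRNA genes range by less than 1 log2 over the lines.

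The clustered protocadherins on chromosome 18, also chosen after their values were seen, had a like split. Of 22 measured Pcdhb genes, 493H was highest in 18 and 494H lowest in 18, and all 11 with a range of at least 1 log2 were highest in 493H. Over all autosomal genes, 493H was highest in 4596 of 19187 and 494H lowest in 29.4%. Among those with a range of at least 1 log2, 493H was highest in 40.9%. Pcdhb9 was at 6.48, 4.45 and 4.31 and Pcdhb16 at 9.27, 7.18 and 8.44 in 493H, 494H and 716H. These genes are near-identical copies whose probes can share signal, so their separate values are uncertain.

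The chromosomal neighbours of most of the 150 genes did not share their differences. For each gene up to 10 nearest measured genes outside the 150 were taken, 5 on each side, and their median deviation was computed in the line that stood farthest apart. This median lay in the gene's direction for 83 of 150 and was 0.0069 log2 over all 150. Selenop had 5 such neighbours, all on the same side. The median exceeded 0.3 log2 in size for 5, Mir377, Crybg1, Pcdhb9, Pcdhb16 and Selenop. Mdm2, the ubiquitin ligase of p53, and Pvt1, a noncoding RNA beside Myc, were looked at after their values were seen because both lie in regions amplified in many sarcomas. Mdm2 was at 12.14 in 493H, 10.22 in 494H and 9.92 in 716H with a neighbour median of 0.0023, and Pvt1 was at 8.74, 10.90 and 9.24 with a neighbour median of 0.12.

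Cell type markers were compared between the lines to see what else the arrays hold. Col1a1, Col1a2 and Sparc were high in every line, but late osteoblast markers were not: Ibsp was at 6.59, 6.34 and 8.13 in 493H, 494H and 716H, against 13.62 at most in the cultures, and Dmp1 at 6.28, 6.71 and 6.29, against 11.07. Of 18 osteoblast markers, 8 ranged by at least 1 log2 over the lines and 716H was highest in 6, Alpl (alkaline phosphatase) among them at 9.69, 10.22 and 12.37. The mean level of these 18 was 8.92, 9.03 and 9.48 in 493H, 494H and 716H. It was 8.63 to 8.91 in the pre-osteoblast cultures and 10.27 to 10.97 in the osteoblast cultures. None of 13 haematopoietic and macrophage markers reached 1 log2, and the list's mean level was 6.58 to 6.64 in the lines. Of the endothelial markers only Tek, at 9.02, 6.28 and 7.15, did so, and of the neural markers only Stmn2. Of 23 mitosis genes none ranged by 1 log2, and the median deviation of the list from the mean of the lines was 0.28 in 494H. The part of any of these in the differences between lines was not tested.

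Tendon and periosteum markers did not follow a single order. Of 11 measured, 7 ranged by at least 1 log2 and 3, Col14a1, Thbs4 and Prg4, were among the 150, of which the first 2 are also on matrix lists. The mean level of the list was 9.48 in 493H, 8.47 in 494H and 9.79 in 716H, against 8.00 to 8.93 in the cultures. 494H was lowest in 5 of the 7 genes, and 493H and 716H were each highest in 3. Tnmd, a tendon membrane protein left out of the 150 as X-linked, was at 10.18, 8.20 and 6.73, with 716H lowest. Fibroblast and stromal markers gave 9 of 16 at 1 log2 or more, and Dpt and Lepr were among the 150. Vim, the mesenchymal filament gene, ranged by 0.03 log2.

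Osteoblast differentiation of Kusa4b10 cells is a contrast that the selection did not use, so it was tested on the 6 cultures alone with limma. Of all 19938 genes, 2523 were higher in osteoblasts (12.7%) and 3793 lower (19%) at an adjusted p below 0.05. Among the 19526 genes that stay within 1 log2 in each control group, as the 150 had to, the shares were 12.4% and 18.7%. Of the 150, 44 were higher (29.3%), 36 lower (24%) and 70 were not called. With all 9 arrays in the fit, 21 of the 150 were called, against 80.

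The called genes had no single direction in the lines. Of the 93 genes with 494H lowest, 28 were higher in osteoblasts and 22 lower. Of the 66 with 716H highest, 19 were higher and 20 lower. Of 2 genes picked after their values were seen, Lama4, a laminin chain, rose by 6.09 ± 0.14 (SE, n = 3 against 3) on the log2 scale (limma, adjusted p = 1.39e-05), the largest of the rises, and was low in 494H (11.50, 9.30 and 11.51). Cd200, an immune-inhibitory ligand, rose by 5.09 ± 0.07 (limma, adjusted p = 2.881e-06) and was graded over the lines (7.77, 8.67 and 9.93).

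Matrix and secreted genes of the 150 split in this test. Prelp, a proteoglycan of the basement membrane, rose by 2.81 ± 0.20 (limma, adjusted p = 0.0003089) and Ltbp2 by 1.55 ± 0.14 (limma, adjusted p = 0.0005898), while Tgfbi fell by 3.13 ± 0.19 (limma, adjusted p = 0.0002083) and Mfap2 by 0.99 ± 0.23 (limma, adjusted p = 0.0201). Thbs4 rose by 0.23 ± 0.07 (limma, adjusted p = 0.0468). Col14a1 differed by 0.09 ± 0.10 and Tnn by 0.00 ± 0.11, both not called (limma, adjusted p = 0.5308 and 0.9832). Trim30a fell by 1.24 ± 0.16 (limma, adjusted p = 0.0022) and Rtp4 by 0.97 ± 0.27 (limma, adjusted p = 0.0387). Of the retinoid genes, Rbp4 rose by 1.01 ± 0.13 (limma, adjusted p = 0.002), Dhrs9 fell by 1.33 ± 0.20 (limma, adjusted p = 0.0041) and Aldh1a2 differed by -0.05 ± 0.11, not called (limma, adjusted p = 0.791).

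The difference between osteoblasts and pre-osteoblasts exceeded the range over the lines in 11 of the 150 genes, and its median size was 0.53 log2 against a median line range of 2.40. Gatm fell by 3.22 ± 0.22 in osteoblasts (limma, adjusted p = 0.0002672) and spanned 3.68 over the lines.

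Limits of the selection touch the genes at its edge. The 3 genes just inside were Cdsn at 2.00, Sobp at 2.01 and Lrrc4c at 2.01 log2, and the 3 just outside were Ms4a4d at 1.99, Il1rl2 at 1.99 and Isl1 at 1.985. Of the 150, 34 spanned at least 3 log2 and 9 at least 4. There were 67 at or below the median level of 7.97 on these arrays. Of 5 genes with more than 1 probe set, the other probe sets of Nova1, Tent5a and Adamts3 named the same highest line, at 2.18 and 2.31 log2 for the first 2 and from 1.32 to 3.23 log2 over the 15 of Adamts3. For Pvt1 the other probe set gave the same highest line at 0.90 log2. For Crybg1 it ranged by 0.25 log2 with another highest line, so that gene rests on 1 probe set. The size of the set also depends on each line: over the remaining pair of lines, 87 genes met the limits without 493H, 51 without 494H and 78 without 716H.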

How the data were processed

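RNA was extracted with Trizol and RNeasy columns, per the labels' protocols, and hybridised to Affymetrix Mouse Gene arrays, 9 in all. The deposited values are log2 levels per probe set, which the authors made with RMA on build mm9, per the submitters' processing notes; their further steps are not stated in the labels. Of 35556 probe sets, 21789 had 1 gene symbol, 1621 several and 12146 none. Of 999 genes with several probe sets the one with the highest mean was used, leaving 19938 genes, of which 751 on X or Y were left out of the set of 150. Chromosomes and sequences came from RefSeq tables of GRCm38.p6, and no coordinate was converted between builds.

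Line arrays were described without a test. Osteoblasts were compared with pre-osteoblasts by limma 3.58.1 in R 4.3.3 (residual degrees of freedom 4, prior 2.27) on the 6 Kusa4b10 arrays, with Benjamini-Hochberg adjustment over all 19938 genes and a threshold of 0.05, and the code was tested on simulated data. These p-values measure only the spread between these samples, and 3 arrays a group limit the precision. Tables were made with Python 3.11.15, pandas 2.3.3 and numpy 2.4.6. The members and gene lists were chosen with earlier results of these data known. Named genes are 4 markers, the 20 widest, the 5 widest in which each line was alone high or low, up to 6 members and 2 abundant other genes of each list, the genes nearest the limit, the Mmp13 neighbourhood and sex-linked transcripts; clone-like names are counted only. Further genes, said to be picked after their values were seen or given as markers, are descriptions. Alternatives changed the probe set rule, scaling, filters, limits, arrays in the fit and the replicates used.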

Additional observations from a re-analysis of the deposited data

How the results depend on the processing

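The number of genes that separated the lines depended on the limits. It was 328 with a line limit of 1.5 log2, 34 with 3 log2, 83 with a limit of 0.5 log2 within the Kusa4b10 groups, and 83 when only genes above the median level were kept; these last settings keep fewer genes by construction. Averaging probe sets gave 148, centring the arrays 158, quantile normalization 148 and no Kusa4b10 limit 215. Leaving out 1 array at a time gave 51 (without 494H) to 184 (without pre-osteoblast culture 2). For the osteoblast contrast, 80 of the 150 were called. With all 9 arrays in the fit, where the spread of the lines enters the error, 21 were called. Averaging probe sets and the other scalings gave 80 to 85. Keeping only genes above the median level left 83 of the 150 in the fit, of which 61 were called. Leaving out a culture gave 64 to 78 calls, and no called gene changed sign. With the culture number as a replicate block, 82 were called. Deviations of same-numbered cultures correlated at 0.15, 0.18 and 0.03, and those of the other pairs at -0.16 to 0.08. Osteoblast cultures 1 and 2 correlated best with the pre-osteoblast culture of the same number, and osteoblast culture 3 with pre-osteoblast culture 1 (0.08). Whether the numbers pair the cultures was not settled by these values, and the main fit did not use them. Under the 2 other scalings the ranges of 21 named genes shifted in all 42 values. For Gatm the range was 3.68 log2, 3.61 with centred arrays and 3.59 with quantile normalization. A range over the lines has no replicate spread to set such shifts against. Averaging probe sets could not move these ranges, since each gene has 1 probe set. With 1 array a line, no error could be given to any difference between lines.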

Other observations

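Probe sets without a single gene symbol also separated the lines. Of 12146 probe sets with no symbol in the annotation, 37 met the same limits, and of 1621 with several symbols, 5 did. They were not named and enter no count above.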
